A study of Mus musculus with 46 samples.

Results

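Fibroblast growth factors (Fgfs) are secreted or intracellular proteins, and the secreted members signal through receptor tyrosine kinases, the Fgf receptors, to the Ras and Mapk cascade. Sprouty (Spry) and Spred proteins are inhibitors of that cascade, and several of them are induced by it. Mesenchymal cells such as fibroblasts are known sources of Fgf2, Fgf7, Fgf10 and Fgf18, while Fgf4 is made by the inner cell mass and by embryonic stem cells, where it drives the exit from naive pluripotency, and Fgf5 marks the epiblast that follows. Histone H3.3 is a replacement variant of histone H3 that is laid down outside DNA replication, at start sites, gene bodies and enhancers. H3K4me3 is the methylation mark of start sites and H3K36me3 that of transcribed gene bodies.

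The genes described here are the protein-coding mouse genes named Fgf with a number, the receptors Fgfr1 to Fgfr4 and Fgfrl1, and the inhibitors Spry1 to Spry4 and Spred1 to Spred3. The annotation used (GENCODE vM1, mm9) held 33 of these 34 symbols among 22238 protein-coding genes: 22 ligands, 5 receptors and 6 feedback inhibitors. Spry3 had no protein-coding entry there and was not analysed here. Each gene was read over a window from 1 kb before its annotated start to 1 kb past its end, and its level was the summed score of the peaks in that window. The score of a peak is its number of tags per 10 M mapped tags, counted in proportion to the overlap where a peak ran past the window.

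The study profiled mouse embryonic fibroblasts (MEFs) from E13.5 embryos that carry an EGFP reporter behind Oct4, infected with pMXs retroviruses for Oct4, Sox2, Klf4 and c-Myc and followed from day 0 to day 16. The successful route is D0, D3, D6T- and D9T- (Thy-1 negative), D12S+ and D16S+ (SSEA-1 positive) and the end point iPSCs, and values for that route below are given in this order. The unsuccessful fractions are D6T+, D9T+, D12S- and D16S-, also in this order, and the embryonic stem cell line ESD3 is a reference. In the transdifferentiation, MEFs depleted of hematopoietic cells received Scl, Lmo2, Bmi1 and Runx1 and were collected as MEF, on day 4 (D4), and after co-culture with OP9 stroma as cKit+ and cKit- fractions. For reprogramming the paper names mESC, KOSR or FF medium, and the growth protocol given with the samples names FF medium. The FF medium contained bFGF, the product of Fgf2, beside LIF, CHIR99021 and ascorbic acid, and the other media are listed without bFGF. Of 46 samples, 30 had a peak list (16 for H3.3, 7 for H3K4me3, 7 for H3K36me3) and 16 were inputs.

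Every group was a single library, so no difference could be tested against replicates and no p-value is given. Intervals below are exact 95% intervals for counted tags (Poisson for a level, conditional binomial for a ratio) and cover counting error only. The libraries are bulk, so fewer cells with a mark and less of it per cell cannot be told apart. H3.3 libraries held 18.7 to 91.8 M tags with 1.65% to 37.21% of them in 25637 to 108179 peaks, H3K4me3 libraries 15.8 to 35.4 M tags with 3.71% to 34.77% in peaks, and H3K36me3 libraries 13.2 to 25.4 M tags with 1.07% to 42.38% in peaks. A gene is called lower when its score was more than 2-fold lower in the second library or no peak was left there, and higher in the opposite case. Counts of Fgf pathway genes are given beside the same share over all 22238 genes, because the libraries differed in how much was called everywhere. The fibroblast markers Thy1, Col1a1, Col1a2, Twist2 and Pdgfrb all held H3.3 peaks in D0 and MEF, with summed scores of 2191 and 1145. The pluripotency markers Nanog, Pou5f1, Esrrb, Zfp42, Dppa5a and Tdgf1 all held peaks in iPSCs and ESD3, with summed scores of 2682 and 1118. Neither set was confined to these cells. Pluripotency markers held peaks at 3 of 6 genes in D0 (57.9) and 2 of 6 in MEF (33.3). Their summed scores were 189 in D4, 416 in D12S- and 385 in D16S-. Fibroblast markers held peaks at 2 of 5 genes in iPSCs (35.6). Of the hematopoietic markers Ptprc, Kit, Gata2 and Itgam, cKit+ cells held H3.3 peaks at Gata2 and Itgam, with a summed score of 12.9. Kit and Ptprc, defining genes of blood progenitors and blood cells, held none in cKit+. The summed score of this set was higher in D0 (140), D4 (295) and cKit- (89.1), so it did not mark the cKit+ cells. Fibroblast markers held peaks in cKit+ at 3 of 5 genes (summed score 114), and only 1.65% of the tags of that library lay in peaks.

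Fgf4 had no H3.3 peak in D0 and D3 and held one in every library of the successful route from day 6. It carries a well-known element, a Sox2 site followed by an Oct4 octamer on the same strand in its 3′ untranslated region. A search of the windows of all 33 genes for CNTTGT followed within 0 to 6 bases by ATGCNAAT, on both strands, found 6 such pairs in 6 genes. They are shown with the Sox and octamer letters in capitals, read on the strand of the match from mm9:

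Fgf4: CTTTGTttggATGCTAAT
Fgf7: CATTGTttATGCAAAT
Fgf9: CTTTGTgcATGCTAAT
Fgf12: CTTTGTtgaccATGCTAAT
Fgf13: CCTTGTtttgtATGCTAAT
Fgfr3: CCTTGTcgATGCCAAT

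The Fgf4 pair lay at chr7:152050299-152050316 on the plus strand, the strand of the gene, 3.01 kb past the start site and 849 bases before the gene end, in exon sequence outside the coding part. The windows of the 33 genes together spanned 2.51 Mb and held 2.39 pairs per Mb, against 1.13 per Mb for the 2897 pairs of the genome. The first density rests on 6 pairs, with the already known Fgf4 element among them, and the difference was not tested. Of all genomic regions of the length of the Fgf4 window (5858 bases), 0.658% held a pair. Of the 6 pairs, the one of Fgf4 lay in a called H3.3 peak in 8 of 16 libraries, the one of Fgf9 (intron) in D6T- alone, and the other 4 in none. The Fgf7 pair, in an intron 3.31 kb past the start of the gene, lay in the H3K4me3 peak of D0, D3 and D6T- and the H3K36me3 peak of D0. Over the genome, 3.38% of pairs lay in an H3.3 peak in D0, 9.01% in iPSCs and 6.01% in ESD3. The share was 8.42% in D4, 6.49% in D12S-, 4.14% in D12S+ and 4.07% in D16S+, so high shares were not limited to pluripotent cells.

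Along the successful route the H3.3 score of Fgf4 was 0, 0, 32.4, 55.0, 50.3, 58.6 and 48.0, and it was 55.5 in ESD3. From D9T- on it ran from 48.0 to 58.6, with intervals that overlapped (41.6 to 55.3 in iPSCs, 48.2 to 70.7 in D16S+). In the unsuccessful fractions the score was 0, 29.4, 41.2 and 22.0, so both arms held H3.3 at Fgf4 from day 9 and the Thy-1 negative cells alone on day 6. The unsuccessful level was 0.535 times the successful one on day 9 (95% interval 0.397 to 0.713), 0.820 times on day 12 (95% interval 0.629 to 1.08) and 0.376 times on day 16 (95% interval 0.258 to 0.534). As scored, the arms were thus apart by more than counting error on days 9 and 16, and not on day 12. D12S+ had 6.93% of its tags in peaks against 21.96% in D12S-. Relative to the median ratio of all genes, Fgf4 was higher in D12S+ than in D12S-. In the transdifferentiation a single weak peak of score 5.26 was called in D4, and none in MEF, cKit+ and cKit-.

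In all 10 libraries with H3.3 at Fgf4 a peak was centred more than 1 kb past the start site. In D6T- it was chr7:152048862-152051128, 4.17-fold over input, and in ESD3 chr7:152048872-152051464, 5.10-fold over input. The peak of D16S- ended at 152050116, before the Sox-Oct pair. D12S+ and iPSCs held additional short peaks near the start site, of scores 12.7 in D12S+ and 8.63 and 5.83 in iPSCs. H3K4me3 peaks began upstream of the start site in all 7 libraries, and those of D6T-, D9T-, D12S+ and iPSCs reached over the pair, while those of D0, D3 and D16S+ ended before it.

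**Figure D1:**
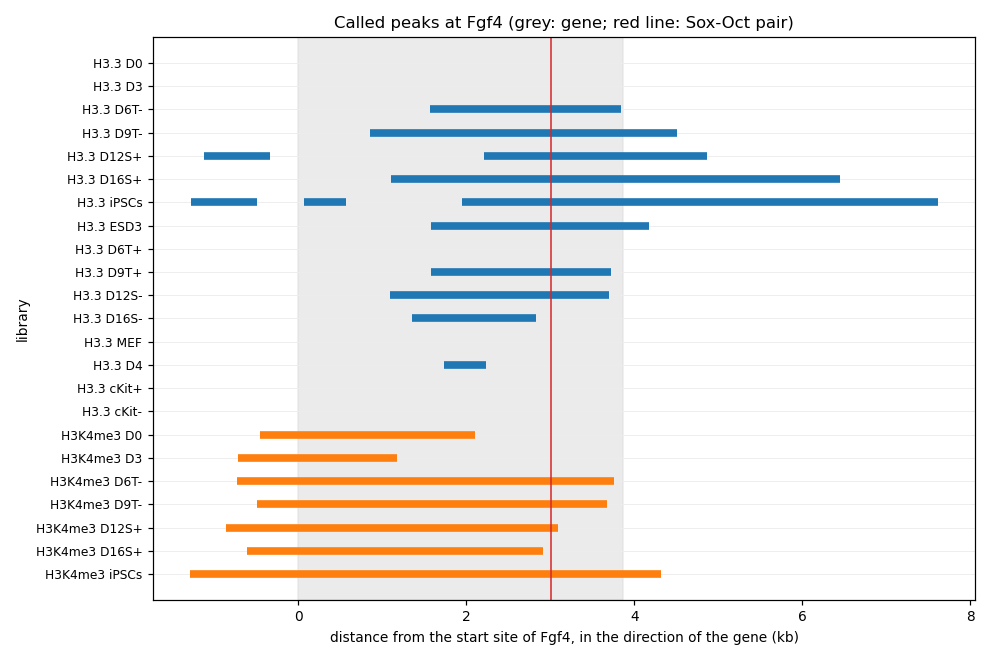
Called peaks at Fgf4 by library, as bars along the distance from its start site in kb, with H3.3 in blue and H3K4me3 in orange, the gene in grey and the Sox-Oct pair as a red line at 3.01 kb. H3.3 peaks cover the pair in 8 of 16 libraries, and none is called at the gene in D0, D3, D6T+, MEF, cKit+ and cKit-.

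Fgf4 was also the 1 gene of the 33 called higher for H3K4me3 from D0 to iPSCs, against 4.06% of all genes. Its H3K4me3 score along the successful route was 37.5, 33.4, 96.6, 106, 92.5, 80.0 and 165. D0 stood at 0.227 times the iPSC level (95% interval 0.184 to 0.280), a log2 change of 2.14 where the median of all genes with peaks in both libraries was -1.34. No H3K36me3 peak was called at Fgf4 in any of the 7 libraries.

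The opposite pattern was seen at Fgf7, the keratinocyte growth factor secreted by mesenchymal cells. Its H3.3 score along the successful route was 384 (95% interval 361 to 408, 18 peaks), 49.5, 0, 3.53, 0, 0 and 0, and it was 0 in ESD3. The unsuccessful fractions held 105, 133, 21.8 and 0, so H3.3 was called there up to day 12. D9T+ stood 37.8-fold above D9T- (95% interval 21.6 to 79.3), where 8.02% of all genes were called lower in D9T-. The MEF library held 90.9, D4 144, cKit+ 42.0 and cKit- 20.3.

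Both methylation marks were lost from Fgf7 along the same route. The H3K4me3 score was 514, 127, 105 and 55.5 up to D9T-, with no peak called later. The H3K36me3 score was 954 in D0 and 71.0 in D3, with no peak in the 5 later libraries. In D0 the H3K4me3 peak at the start site was 9.18 kb long, and 2.10 kb in D9T-. Fgf7 lies within the longer gene 4930525F21Rik on the opposite strand, which spans chr2:125809219-125977740, so every peak of Fgf7 also overlapped that gene and its calls were lost when such peaks were left out. In D0 the H3.3 score per kb was 6.56 in the window of Fgf7 and 1.94 in the remaining 110 kb of the enclosing gene, and for H3K4me3 the values were 8.78 and 0.270. In D9T+ the H3.3 score per kb was 2.28 in the window and 0.136 outside it.

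The upstream sequences of the 2 ligands differ in CpG content, and are shown for the 250 bases before the start site, 5′ to 3′ on the strand of the gene, with each CG in capitals:

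Fgf4: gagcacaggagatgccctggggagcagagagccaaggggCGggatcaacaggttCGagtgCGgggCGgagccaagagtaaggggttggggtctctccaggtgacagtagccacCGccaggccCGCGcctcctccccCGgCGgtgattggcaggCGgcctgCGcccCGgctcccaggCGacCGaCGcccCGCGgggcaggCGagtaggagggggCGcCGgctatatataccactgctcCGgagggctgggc
Fgf7: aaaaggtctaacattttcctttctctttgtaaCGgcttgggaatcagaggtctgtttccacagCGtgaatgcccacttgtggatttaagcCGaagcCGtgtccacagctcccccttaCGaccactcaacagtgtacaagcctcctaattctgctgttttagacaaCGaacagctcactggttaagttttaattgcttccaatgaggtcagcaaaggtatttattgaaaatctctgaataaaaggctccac

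The first is chr7:152047041-152047290 with 21 CpGs and 71.2% G+C, the second chr2:125860144-125860393 with 6 CpGs and 43.6% G+C, both on the plus strand of mm9. The median promoter of all 22238 genes had 3.60 CpGs per 100 bases, against 8.40 for Fgf4 and 2.40 for Fgf7. CpG content did not separate the mesenchymal ligands from the others, since Fgf18 had 14.8 per 100 bases and Fgf17 1.60. Neither sequence holds a Sox-Oct pair, an octamer or an AP-1 site (TGANTCA) by these letters. Over all promoters these were present in 0.0405%, 2.72% and 5.88%, and in 0, 2 and 0 of the 33 Fgf pathway genes.

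Fgf2, the gene of the bFGF listed for FF medium, held H3.3 scores of 299 (19 peaks), 47.4, 42.8, 21.5, 0, 0 and 0 along the successful route and none in ESD3. In the unsuccessful fractions it held 46.3, 92.8, 85.2 and 70.1. The arms differed by 1.08-fold on day 6 (95% interval 0.819 to 1.41), D9T+ stood 4.32-fold above D9T- (95% interval 3.25 to 5.70), and on days 12 and 16 peaks were called at Fgf2 in the unsuccessful arm alone. In the transdifferentiation it held 232 in MEF, 461 in D4, 4.47 in cKit+ and 16.6 in cKit-. The annotated entry of Fgf2 begins at the neighbouring gene Bbs12, 5′ of its coding transcripts. Read from the start of the coding transcript, the scores were 207, 40.8, 17.0 and 6.18 up to D9T- and 0 later, and 169 in MEF.

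At Fgf2 H3K4me3 was still called in libraries where H3.3 was not. The H3K4me3 scores were 359, 265, 335, 209, 78.2, 0 and 76.2, so peaks were called in D12S+ and iPSCs. From D0 to iPSCs the score was 4.71-fold lower (95% interval 4.11 to 5.39), a call that was lost relative to the median of all genes. The H3K36me3 scores of Fgf2 were 142, 39.3, 21.5, 133, 0, 7.58 and 0. In these H3K36me3 libraries 31.34%, 14.13%, 7.50%, 42.38%, 1.07%, 1.99% and 2.88% of all tags lay in peaks, in the same order.

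**Figure D2:**
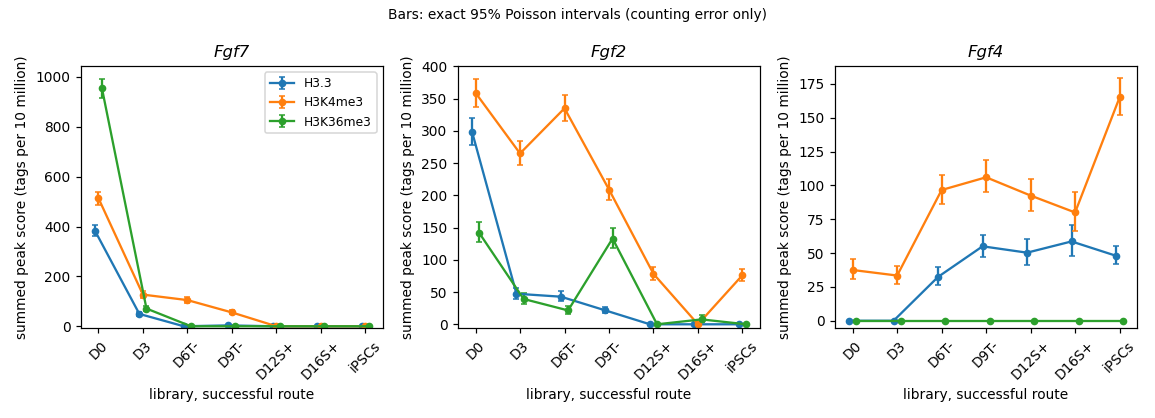
Summed peak score, in tags per 10 M, of H3.3, H3K4me3 and H3K36me3 at Fgf7, Fgf2 and Fgf4 over the 7 libraries of the successful route, with exact 95% Poisson intervals as bars. All 3 marks end at 0 for Fgf7, H3K4me3 stays at 76.2 for Fgf2 in iPSCs, and H3.3 and H3K4me3 reach 48.0 and 165 for Fgf4.

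Fgf10, which directs limb and lung outgrowth, held H3.3 scores of 33.6, 33.7, 20.7, 0, 0, 0 and 5.10 along the successful route. D9T+ held 17.8, D4 46.1 and cKit+ 4.14, and the remaining 6 libraries, MEF and ESD3 among them, held none. The D0 level was that of 5 short peaks of 5.56 to 7.98 each, and Fgf10 was 6.58-fold lower in iPSCs (95% interval 4.03 to 11.1). With equal numbers of top-scoring peaks, or with peaks at or above the median score of their library, Fgf10 held none in D0 and iPSCs and the call was lost. Its H3K4me3 peak at the start site scored 228 in D0 and 46.5 in iPSCs.

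Fgf18, a growth factor of bone and cartilage, held 81.7, 40.9, 154, 108, 24.3, 11.5 and 10.3 along the successful route and 10.8 in ESD3, so its scores were lowest from D12S+ on. The unsuccessful fractions held 30.0, 78.4, 96.3 and 55.9, MEF 57.7, D4 166 and both cKit fractions none. A peak of 16.4 kb in D0, with a score of 350, ran from Npm1 over the start of Fgf18, and only its part in the window was counted. Without peaks that overlap another gene Fgf18 held 32.6 in D0, 0 in iPSCs, 17.7 in MEF and 6.71 in ESD3. Fgf18 was 7.93-fold lower in iPSCs than in D0 (95% interval 5.73 to 11.4) and 5.34-fold lower in ESD3 than in MEF (95% interval 3.55 to 8.72), but with whole peak scores MEF held 132 and ESD3 186, and that call was lost.

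The other ligands known from embryo and stem cells were Fgf17, Fgf5, Fgf8 and Fgf15. Fgf17, of the Fgf8 subfamily, held 41.4 in iPSCs and 45.3 in ESD3, 6.66 in D12S+, 4.74 in D12S- and 4.71 in D4, and no peak in the other 11 libraries, D0 and MEF among them. Its iPSC peak of 5.18 kb also overlapped Epb4.9, the gene downstream, and when peaks that overlap another gene were left out the call from D0 to iPSCs was lost. In ESD3 an intronic peak of score 7.17 and an upstream one of score 18.3 did not touch Epb4.9, and without overlapping peaks ESD3 held 16.2 against 0 in MEF.

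Fgf5 held 5.35 in iPSCs, 15.0 in ESD3, 15.4 in MEF and 21.7 in D4 and no peak elsewhere, so its MEF and ESD3 levels differed by 1.03-fold (95% interval 0.678 to 1.63). Fgf8 held 7.23 in D0, 6.40 in D6T- and 16.2 in D4 alone. Fgf15, an endocrine ligand of the intestine, held 6.24 in D6T-, 8.26 in iPSCs and 6.40 in D12S-. Each of these values is that of 1 or 2 peaks. Fgf8, counted here with the stem cell ligands, was called lower from D0 to iPSCs.

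**Figure D3:**
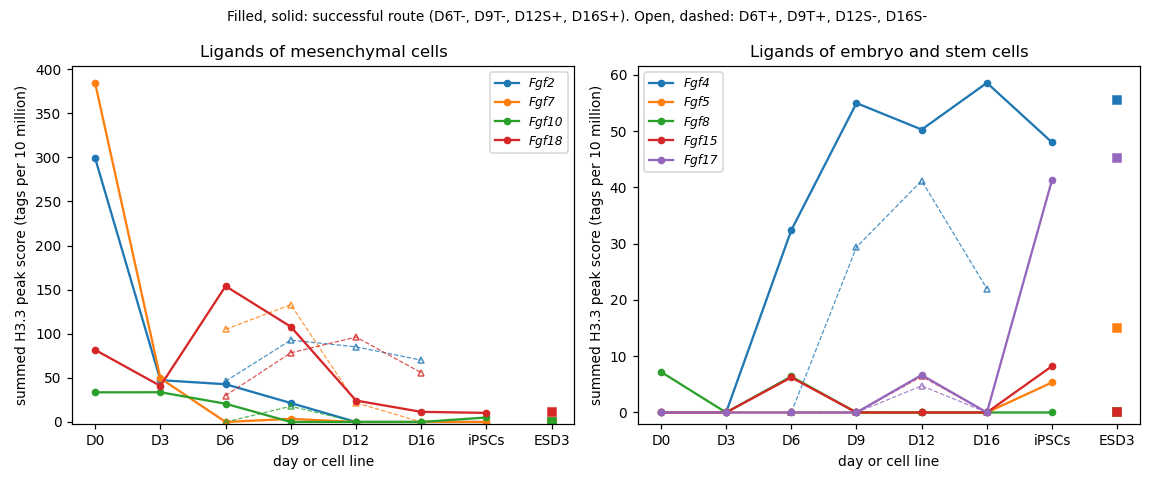
Summed H3.3 peak score, in tags per 10 M, of 4 mesenchymal ligands (left) and 5 embryo and stem cell ligands (right, on its own scale) from D0 to iPSCs, with the successful route filled and solid, the unsuccessful fractions open and dashed, and ESD3 as a square. Fgf2 and Fgf7 start at 299 and 384 and end at 0, while Fgf4 starts at 0 and reaches 32.4 in D6T-.

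Read as lists, all 4 mesenchymal ligands were lower from D0 to iPSCs (Fgf10 from weak peaks only), where 28.1% of all genes were, and 3 of 4 from MEF to ESD3 (all but Fgf10, which had no peak in both), where 23.2% of all genes were. Of the 5 stem cell ligands, 4 were higher from D0 to iPSCs (17.3% of all genes) and 2, Fgf4 and Fgf17, from MEF to ESD3 (21.7% of all genes). The lists were chosen with results of these data known, so the counts describe them and support nothing further.

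Over all 33 genes, 14 (42.4%) were lower and 9 (27.3%) higher from D0 to iPSCs. Among the 16 with peaks in both libraries the median log2 ratio was -1.17, against -0.47 for 11656 genes. With scores divided by the share of each library's tags in peaks, 9 were lower (22.9% of all genes) and 9 higher (21.2% of all genes). From MEF to ESD3, which share no library with the first pair, 8 (24.2%) were lower and 10 (30.3%) higher, beside 23.2% and 21.7% of all genes, with a median log2 ratio of 0.27 among 14 genes against -0.05 for 9128. In both contrasts 5 genes were lower (14.7% of all genes): Fgf2, Fgf7, Fgf11, Fgf18 and Fgfr2. The calls of Fgf11 and Fgfr2 from D0 to iPSCs were lost relative to the median of all genes. In both, 3 were higher (9.63% of all genes): Fgf4, Fgf17 and Fgfr4.

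**Figure D4:**
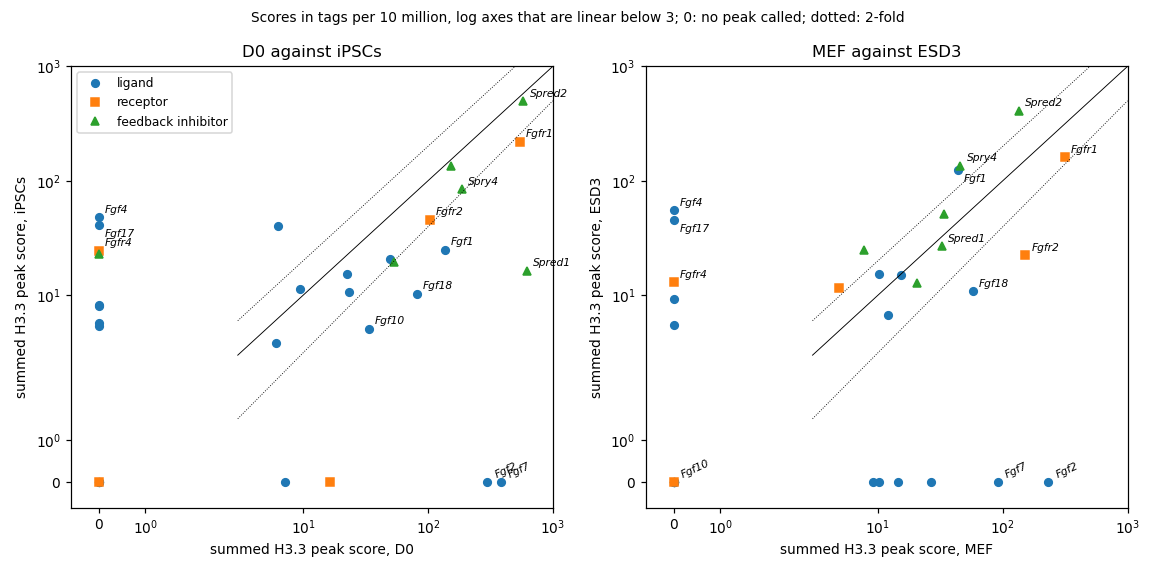
Summed H3.3 peak scores of the 33 genes, in tags per 10 M on log axes that are linear below 3, in D0 against iPSCs (left) and MEF against ESD3 (right), by role, with dotted lines at a 2-fold difference and 0 for no peak called. Fgf2 and Fgf7 lie on the lower axis and Fgf4, Fgf17 and Fgfr4 on the left axis of both plots, while Spred1 is far below the line only on the left.

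Fgf11 is an intracellular Fgf that does not act through the receptors. Its H3.3 scores along the successful route were 49.8, 17.0, 53.4, 56.0, 20.4, 6.67 and 20.6, with none in ESD3. The unsuccessful fractions held 9.08, 37.8, 77.1 and 53.6, and MEF, D4, cKit+ and cKit- held 26.6, 97.5, 0 and 0. It was 2.41-fold lower in iPSCs than in D0 (95% interval 1.82 to 3.20), a call that was lost in the gene without flanks and relative to the median of all genes. Peaks at both ends of Fgf11 also overlapped Chrnb1 and Tmem102.

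Among the receptors, Fgfr1, the main receptor of fibroblasts, held H3.3 in all 16 libraries, from 11.2 in cKit- to 1093 in D4, with 544 in D0 and 219 in iPSCs. It was 2.48-fold lower in iPSCs (95% interval 2.28 to 2.70), a call lost relative to the median of all genes, and 1.95-fold lower in ESD3 than in MEF (95% interval 1.73 to 2.20), just short of the call. Its H3K36me3 score was 20.2-fold lower in iPSCs than in D0 (95% interval 15.4 to 26.6), and its H3K4me3 score 3.34-fold lower (95% interval 3.05 to 3.67), the latter call being lost relative to the median.

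Fgfr2, whose splice forms bind Fgf7 and Fgf10 or Fgf2, held 104, 114, 69.3, 41.7, 14.4, 17.9 and 45.6 along the successful route and 22.4 in ESD3. The unsuccessful fractions held 74.7, 45.3, 27.8 and 20.5, MEF 152, D4 662 and both cKit fractions none. The unsuccessful level of Fgfr2 over the successful one was 1.09-fold on day 9 (95% interval 0.834 to 1.42), 1.93-fold on day 12 (95% interval 1.25 to 2.95) and 1.14-fold on day 16 (95% interval 0.702 to 1.83), so the arms differed by more than counting error on day 12 alone. Relative to the median of all genes the direction turned, with the successful fraction higher by 0.61 on day 12 and 1.13 on day 16 on the log2 scale. Fgfr2 was 2.28-fold lower in iPSCs than in D0 (95% interval 1.88 to 2.75), a call lost relative to the median, and ESD3 stood at 0.148 times the MEF level (95% interval 0.110 to 0.200). In the annotation 1 transcript of Fgfr2 runs on over other genes, and it was left out of the window, which kept 104 kb of the gene.

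Fgfr4 held an H3.3 peak in 5 of 16 libraries, with 24.5 in iPSCs, 13 in ESD3, 11.5 in D12S-, 6.93 in D16S+ and 5.02 in D4. The iPSC level was that of 3 peaks, of 17.5 and 5.35 at annotated start sites and of 8.02 in an intron. Fgfr3 held at most 59.6, in D4, with no peak in D0 and iPSCs and 4.93 and 11.5 in MEF and ESD3. Fgfrl1, a receptor without a kinase, held 16.3 in D0, 6.89 in D12S+ and at most 50.3, in D4, with no peak in D16S+, iPSCs, ESD3 and MEF.

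**Figure D5:**
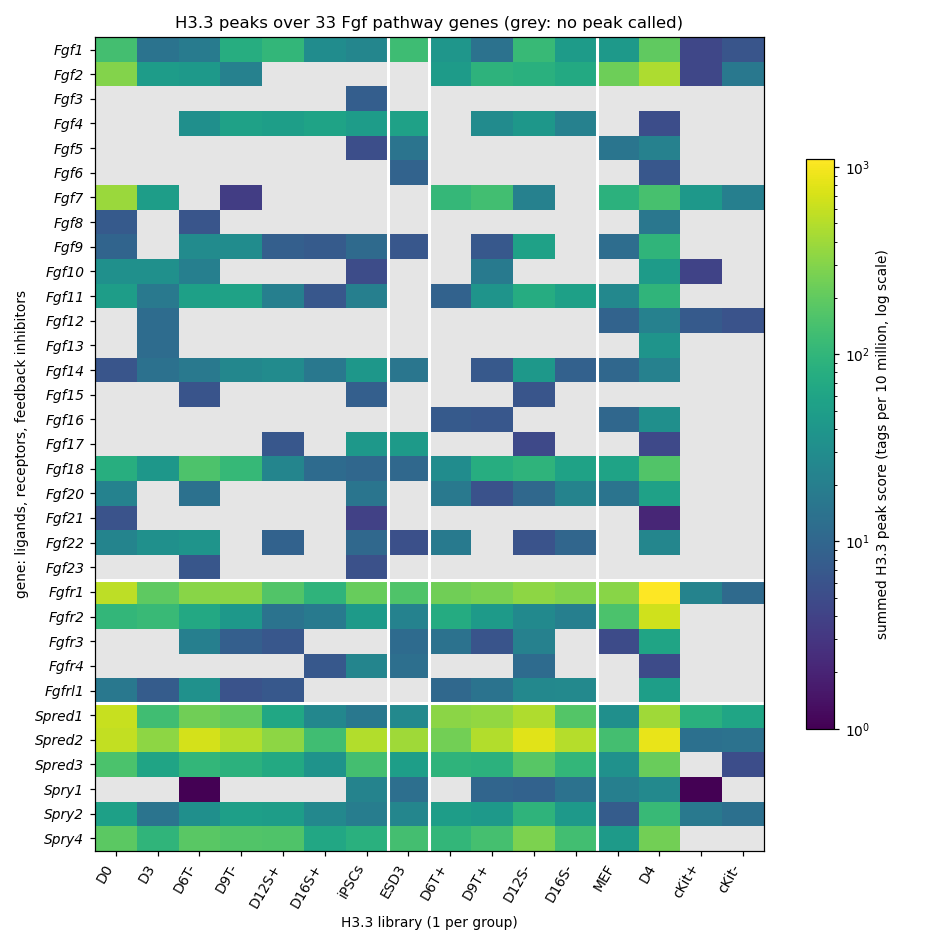
Summed H3.3 peak score of the 33 genes (rows: ligands, receptors, feedback inhibitors) in the 16 H3.3 libraries (columns: successful route, ESD3, unsuccessful fractions, transdifferentiation), on a log colour scale in tags per 10 M, with grey where no peak was called. Fgfr1, Spred1, Spred2, Spry2 and Fgf1 hold peaks in all 16 libraries, and D4 is filled at 30 of the 33 genes.

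Of the feedback inhibitors, 5 of 6 held H3.3 peaks in D0 and all 6 in iPSCs, where 61.9% and 61.3% of all genes did. Per kb of window, the H3.3 scores of Spred3, Spry4, Spred1, Spry2, Spred2 and Spry1 in D0 were 11.7, 11.0, 9.83, 7.83, 5.72 and 0, against 6.56 for Fgf7 and 3.15 for Fgf2. Spred1, an inhibitor of Raf activation, held 618, 130, 240, 203, 65.4, 25.9 and 16.4 along the successful route and 26.9 in ESD3. It was 37.7-fold lower in iPSCs than in D0 (95% interval 29.4 to 48.4), the widest ratio among the 16 genes with peaks in both, and the unsuccessful fractions held 327, 356, 481 and 169. The MEF library held only 32.8 at Spred1, against 618 in D0, both labelled as fibroblasts but from separate preparations, and MEF and ESD3 differed by 1.22-fold (95% interval 0.897 to 1.68).

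Spred2 held 581, 335, 701, 487, 333, 129 and 497 along the successful route, lowest in D16S+, with a range over the 16 libraries from 13.1 in cKit+ to 882 in D4. Spred3 changed by 1.13-fold from D0 to iPSCs (95% interval 0.989 to 1.28). Spry4 was 2.21-fold lower (95% interval 1.93 to 2.54) and Spry2 2.75-fold lower (95% interval 2.07 to 3.63), and both calls were lost relative to the median of all genes. Spry1 held no H3.3 peak in D0 and 23.1 in iPSCs, but 20.6 in MEF and 12.9 in ESD3.

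The sorted fractions of one day were compared with the unsuccessful fraction first. On day 6, 3 genes were lower (5.44% of all genes) and 13 higher (30.9% of all genes) in D6T-, and the lower ones were Fgf1, Fgf7 and Fgf16. The higher ones include Spry1 at a score of only 0.0624, and with scores divided by the share of tags in peaks 6 were lower and 10 higher (10.1% and 18.8% of all genes). On day 9, 7 (21.2%) were lower, where 8.02% of all genes were, and 3 higher (16.9% of all genes). The 7 were Fgf2, Fgf7, Fgf10, Fgf16, Fgf20, Fgfrl1 and Spry1, so 3 of the 4 mesenchymal ligands are among them. Day 6 differed, since of these 4 ligands Fgf7 was lower and Fgf10 and Fgf18 were higher in D6T-.

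On day 12, 15 were lower in D12S+ (49.6% of all genes) and none higher (2.49% of all genes). On day 16, 11 were lower (41.0% of all genes) and 3 higher (6.15% of all genes), namely Fgf4, Fgf9 and Fgfr4. All genes shifted together in the late pairs, with median log2 ratios of -1.56 and -1.33, and D12S+ and D16S+ had 6.93% and 4.88% of tags in peaks against 21.96% and 12.21% in D12S- and D16S-. After division by those shares, 8 were lower and 5 higher in D12S+ (23.1% and 10.6% of all genes), and 7 lower and 5 higher in D16S+ (26.2% and 12.9% of all genes). Relative to the median of all genes, Fgf2 was among the lower and Fgf4 among the higher ones on both days. Fibroblast markers moved with these fractions, at 0 to 124 in summed score on the successful route from day 6 and 143 to 797 in the unsuccessful fractions, and their part in the difference was not tested.

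H3K4me3 was present at most of the genes in every library. In D0, 32 of 33 had a peak within 1 kb of a start site, and 28 in iPSCs, a count not made over all genes. In the whole window, 97.0% of the 33 genes held a peak in D0 and 90.9% in iPSCs, against 70.3% and 69.1% of all genes. Fgf5, Fgf8 and Fgf15, which held H3.3 in 3 or 4 of 16 libraries, had H3K4me3 peaks in all 7. From D0 to iPSCs 25 (75.8%) were lower, against 51.3% of all genes, with a median log2 ratio of -1.49 against -1.34 for all genes. Relative to that median, 7 were lower (Fgf1, Fgf5, Fgf7, Fgf10, Fgf13, Fgf21 and Spred1) and 5 higher (Fgf3, Fgf4, Fgf14, Fgf17 and Fgf22). With scores divided by the share of tags in peaks, the numbers were again 7 (11.1% of all genes) and 5 (8.23% of all genes).

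For Fgf5 the H3K4me3 scores were 135, 98.6, 102, 63.0, 49.3, 16.4 and 25.3, with iPSCs 5.33-fold below D0 (95% interval 4.21 to 6.74). Fgf17 held 79.6 in D0 and 70.9 in iPSCs, a ratio of 1.12-fold (95% interval 0.937 to 1.35). At its own start site the H3K4me3 peaks scored 32.0 and 21.3, and its window also holds the start of Epb4.9, the gene downstream. The part of Epb4.9 in these scores of Fgf17, and in its call relative to the median, was not tested. H3K36me3 was called at 13 of the 33 genes in D0 (39.4%, against 49.7% of all genes) and 3 in iPSCs (9.09%, against 34.9%). All 13 were lower (46.5% of all genes) and none higher (3.59% of all genes), and the 3 left in iPSCs were Fgfr1, Fgfr2 and Spred2. Only 2.88% of the tags of that iPSC library lay in peaks, against 31.34% in D0, and the median log2 ratio of all genes was -3.01. With scores divided by those shares, 10 were lower (23.4% of all genes) and 2 higher (14.4% of all genes).

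In the transdifferentiation, 26 of the 33 (78.8%) were higher in D4 than in MEF, against 67.1% of all genes, and none was lower (0.980% of all genes). The D4 library had 37.21% of its tags in peaks and the MEF library 7.64%, and the median log2 ratio of all genes was 2.31. With scores divided by the share of tags in peaks, 6 were lower (9.13% of all genes) and 13 higher (30.2% of all genes). Relative to the median, the lower ones were Fgf2, Fgf5, Fgf7, Fgf12, Fgf14 and Spry1. The largest scores in D4 were at Fgfr1 (1093 from 313 in MEF), Spred2 (882 from 134) and Fgfr2 (662 from 152).

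From D4 to cKit+, 30 were lower (71.5% of all genes) and none higher (0.558% of all genes), with 1.65% of the tags of the cKit+ library in peaks and a median log2 ratio of -3.93 over all genes. The genes with peaks left in cKit+ included Fgf7 (42.0, 7 peaks) and Spred1 (85.4, 14 peaks). Fgf7 was 3.43-fold lower than in D4 (95% interval 3.04 to 3.87) and Fgf2 103-fold lower (95% interval 75.9 to 144). Read from the start of its coding transcript, Fgf2 held 358 in D4 and no peak in cKit+. The direction of Fgf7 turned relative to the median of all genes, and Fgf7, Fgf12, Spred1 and Spry2 were the 4 higher ones. After division by the share of tags in peaks, 24 were lower (43.5% of all genes) and 5 higher (12.5% of all genes).

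Of the other ligands, Fgf1, inside Arhgap26, held H3.3 in all 16, from 4.41 to 198, and Fgf14 in 13. Fgf9 held peaks in 11 and Fgf22 in 10, Fgf20 in 9, Fgf12 in 5, Fgf16 in 4, Fgf21 in 3, and Fgf6, Fgf13 and Fgf23 in 2 each. Fgf3, which neighbours Fgf4, held a single peak of 8.14, in iPSCs. Fgf14, a partner of sodium channels, went from 6.31 in D0 to 40.5 in iPSCs.

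Most H3.3 peaks of these genes lay in introns, 108 of 143 in D0. AP-1 letters (TGANTCA) were found in the central 300 bases of 18 of 143 peaks in D0 (12.6%, against 13.5% of all D0 peaks) and of 3 of 85 in iPSCs (3.53%, against 9.00% of all iPSC peaks). The share was 12.2% in MEF (12.6% of all peaks), 3.28% in ESD3 (9.23%) and 14.6% in D3 (10.3%). It was 5.77% in D9T+ (11.1%), 6.93% in D12S- (11.6%) and 13.9% in D16S- (11.0%), so the unsuccessful fractions showed no steady course.

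The rest of the pathway was read through 27 genes. Of 18 adaptor and cascade genes, which held H3.3 peaks in both libraries without exception, 5 were lower from D0 to iPSCs (Frs2, Sos2, Ptpn11, Plcg1 and Hras1) and 1 higher (Gab1), where 28.1% and 17.3% of all genes were. From MEF to ESD3, 2 were lower and 6 higher, where 23.2% and 21.7% of all genes were. Of 7 genes induced by the cascade, to be read beside the same shares, Dusp4 and Egr1 were lower and Etv5 and Il17rd higher from D0 to iPSCs, and Dusp4, Dusp6 and Egr1 were lower and Etv5 higher from MEF to ESD3. Etv5, an Ets factor, held 95 in D0, 438 in iPSCs, 69.3 in MEF and 410 in ESD3, and Dusp4, a phosphatase of Mapk, held 180, 44.7, 99.6 and 18.4. Of the co-receptors of the endocrine ligands, Kl held no peak in these 4 libraries, and Klb was lower from D0 to iPSCs (22.2 to 5.95).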

How the data were processed

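H3.3, H3K4me3 and H3K36me3 ChIP-Seq peak lists of 30 libraries were used, and the 16 inputs entered through the authors' peak calls only. The authors aligned reads to mm9 with STAR, removed reads with more than 2 mismatches or several loci, and called peaks in each library against its input with HOMER in histone style, at 2-fold (H3.3) or 4-fold (H3K4me3, H3K36me3) over input and a Poisson p of 1e-04. Versions are not given in the sources used here. The deposited signal values are tags per 10 M, neither divided by length nor reduced by the input. The deposited fold ratio over input was used only for a stricter selection of peaks.

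Peaks overlapping a window by at least 1 base were summed in Python 3.11.15 (NumPy 2.4.6, SciPy 1.17.1, pysam 0.24.0). Calls used a 2-fold threshold, and a set of simulated lists with known changes was used to check the code. With 1 library per group no test was run. All 33 genes are accounted for. The 9 ligands of the 2 lists and the genes called alike in both end point contrasts are given in every library. Genes, lists and motifs were chosen with earlier results of these data known. Where genes shared a symbol, the longest entry was kept. Spi1 was not matched among 5 hematopoietic markers. Sequences came from the mm9 genome. Peak lists were read as called, so an uncalled gene may still hold tags.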

Additional observations from a re-analysis of the deposited data

Results flagged for a closer look

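In all, 4 genes were called in opposite directions in the 2 end point contrasts, and no test of the difference was possible with 1 library per group. Such opposite calls were made at 12.1% of the Fgf pathway genes and 4.68% of all genes. Relative to the median of all genes the calls of Fgf22, Spry2 and Spry4 from D0 to iPSCs were lost, and of the 4 genes Fgf1 alone was still called in opposite directions. At Fgf1 the H3.3 score fell by 111 from D0 to iPSCs (136 to 24.9) and was 80.8 higher in ESD3 than in MEF. The H3.3 score per kb in the Fgf1 window and in the rest of the enclosing Arhgap26 was 1.47 and 1.40 in D0. It was 0.269 and 0.305 in iPSCs, 0.470 and 0.532 in MEF, and 1.34 and 0.539 in ESD3. The fall from D0 to iPSCs was thus also seen in the rest of the enclosing gene. At Fgf22 the summed score fell by 12.7 from D0 to iPSCs and was 5.54 higher in ESD3, from no peak in MEF. At Spry2 it fell by 34.2 and was 17.4 higher, and at Spry4 it fell by 102 and was 90.3 higher. The MEF library had lower scores than D0 at all 4 genes, with 7.64% of its tags in peaks against 19.08% in D0.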

How the results depend on the processing

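No paired analysis was possible because every group was 1 library. Of 257 repeats of the counts under 9 other settings and 2 more chosen after seeing the data (the full annotated extent of Fgfr2, and calls relative to the median ratio of all genes), 194 stayed within 1.5 times the value reported, and of 352 repeats for single genes 299 kept their call. The cause of the changes below was not tested. With peaks at least 4-fold over input, from D0 to iPSCs 3 genes were higher and 2 of the stem cell ligands. From MEF to ESD3 1 was then lower, 17 higher and 0 of the fibroblast ligands lower, and Fgf18 and Fgfr2 changed direction, with ESD3 10.8 and 6.24 above MEF. Under that limit 6 were lower on day 6, 12 lower and 1 higher on day 9, 2 higher on day 12, 1 lower and 12 higher from MEF to D4, 12 lower from D4 to cKit+, and the fewest genes with H3.3 in a library were 0. With equal numbers of top-scoring peaks 4 were higher from D0 to iPSCs, 5 lower and 7 higher on day 6, 4 lower on day 9, 9 lower and 3 higher on day 12 and 6 higher on day 16. For H3K4me3 2 were then higher, for H3K36me3 7 lower and 1 higher, from MEF to D4 4 lower and 14 higher, and from D4 to cKit+ 16 lower and 3 higher. The most genes in a library were 17, and the days with more genes in the successful fraction were 0. With scores divided by the share of tags in peaks 9 were lower from D0 to iPSCs, for H3K4me3 7 lower and 5 higher, for H3K36me3 2 higher, from MEF to D4 6 lower and 13 higher, and from D4 to cKit+ 5 higher. Relative to the median 8 were lower from D0 to iPSCs, 6 lower on day 6, 8 lower and 5 higher on day 12, 7 lower and 5 higher on day 16, for H3K4me3 7 lower and 5 higher, for H3K36me3 1 higher, from MEF to D4 6 lower and 13 higher, and from D4 to cKit+ 4 higher. With a 4-fold threshold 8 were lower from D0 to iPSCs, 5 higher from MEF to ESD3 and 8 lower for H3K4me3. With peaks at or above their library's median score 5 were lower on day 6, 3 lower on day 9, 1 higher on day 12 and 1 lower from MEF to D4, and the fewest genes in a library were 5. By peak midpoint 5 were lower on day 6, 2 higher on day 12 and 2 higher for H3K4me3, without flanks 1 was higher on day 12, and without peaks that overlap another gene 2 were higher on day 12, 3 for H3K4me3 and 3 lower from MEF to D4. Precision is limited by the number of libraries, and a gene without a called peak may hold tags below the calling limit.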
